A study of Mus musculus with 6 samples.

Results

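The genes described here encode the Wnt ligands, their Frizzled and Lrp receptors, the secreted antagonists of the pathway and its core nuclear members, in the subventricular zone of the mouse brain after stroke. Members were chosen from the array annotation by symbol: a symbol starting with Wnt, Fzd, Sfrp or Dkk followed by a digit, or one of Lrp5, Lrp6, Wif1, Frzb, Axin2, Lef1, Tcf7, Tcf7l1, Tcf7l2 and Ctnnb1. The rule found 47 of the 18194 genes measured: 19 Wnt ligands, 10 Frizzled receptors, 2 Lrp co-receptors, 6 Wnt-binding antagonists, 4 Dickkopf genes, 5 intracellular members and Fzd10os, an opposite-strand transcript named after Fzd10. Tcf7 matched no probe set with a single symbol and was not analysed here.

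Wnt proteins are lipid-modified secreted signals that bind a Frizzled receptor together with Lrp5 or Lrp6. Binding stops a cytoplasmic complex built on Axin from degrading beta-catenin, which then enters the nucleus and switches on target genes with the Tcf and Lef factors. In the adult neurogenic niches Wnt signalling is known for acting on the proliferation of progenitors and the production of neurons, and in brain vessels for maintaining the blood-brain barrier.

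Total RNA was measured on 6 one-colour arrays, 1 per sample. In the first group, 3 samples of the subventricular zone came from male C57BL/6 mice killed 48 h after surgery for occlusion of the middle cerebral artery (MCAO), a model of ischemic stroke in which a main artery of the brain is blocked. The other 3 came from sham-operated males of the same strain at the same time. The labels used here give neither age, nor the side of the brain, nor the length of the occlusion. Nothing in the labels ties an array to a mouse of its own, so the p-values reflect the spread among these 6 samples alone, part of which may be technical. Samples are numbered 1 to 3 in both groups, and same-numbered arrays deviated together across genes, so differences are also given within same-numbered pairs and from a fit with this number as a block.

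All levels are quantile-normalised log2 values, with 1 probe set per gene, and a difference is MCAO minus sham on that scale with the standard error (SE) of the fit (n = 3 per group). Adjusted p-values are 2-sided, from limma, with the Benjamini-Hochberg method applied over all 18194 genes and a threshold of 0.05. A value on this scale is a brightness and cannot be set against that of another probe set. In sham tissue 15 of the 47 members lay above the median gene, and the same 15 passed a filter at the median over all 6 arrays, while 32 did not.

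The tissue label was set beside marker lists. In sham, 8 of 10 neuroblast markers, 8 of 10 ependymal markers, 10 of 10 astrocyte markers and 8 of 8 measured markers of striatal neurons lay above the median gene, as did 2 of 9 choroid plexus markers. So did 10 of 10 neural stem cell, 8 of 10 microglia and macrophage, 6 of 9 endothelial and 6 of 9 oligodendrocyte lineage markers. The counts were 4 of 10 for mural cells and fibroblasts and 3 of 9 for cortical, hippocampal or septal neurons. Such counts do not tell the subventricular zone from nearby tissue. Both arrays numbered 1 stood apart from the other 4 along the first principal component, with 40.8% of the variance. The second component, with 33.8%, separated the groups. Along it the MCAO arrays lay between -19.3 and -8.02 and the sham arrays between 7.39 and 16.4.

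None of the 47 members passed the threshold without the block by limma, and 4 (8.51%) had an unadjusted p under 0.05; over all genes 1.13% passed and 8.77% had such a p. With the number as a block 2 members (4.26%) passed, Dkk3 higher and Fzd2 lower in MCAO. Across the array 6.12% passed with the block, 4.82% higher and 1.30% lower. With the block 6 members (12.8%) had an unadjusted p under 0.05, against 19.0% of all genes. The members' median difference was -0.013, with 23 higher and 24 lower, and the median over all genes was -0.0064.

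The members' level bears on these shares, since 32 of them were dim. Among the 15 members above the median gene, 4 (26.7%) had an unadjusted p under 0.05 without the block and 2 (13.3%) passed with it. Over all genes above the median the shares were 11.6% and 8.88%. Among the 32 members below it, 0 had such a p without the block by limma and 0 passed with it, where 2 (6.25%) had an unadjusted p under 0.05. Over all genes below the median those shares were 5.98%, 3.35% and 10.2%.

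The sizes were also bounded. Without the block, the 95% interval of the difference lay inside a 1.5-fold change either way for 44 of the 47 members (93.6%), against 90.8% of all genes. This was 13 of the 15 members above the median gene (86.7%, against 84.9% of all genes above it) and 31 of the 32 below (96.9%, against 96.6%). With the block this held for 46 members, against 96.5% of all genes. Every member's interval lay inside a 2-fold change in both fits. The same held for 17886 of all 18194 genes without the block and 18025 with it. Narrow intervals of the 32 members below the median gene do not show that a change was absent. The groups did not overlap for 8 members (17.0%), against 13.8% of all genes: Dkk3, Dkk4, Fzd7 and Wnt9a were higher on all 3 MCAO arrays, and Fzd2, Fzd10, Wnt2 and Wnt11 were lower. Differences had the same sign in all 3 same-numbered pairs for 14 members (29.8%), against 39.8% of all genes.

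**Figure D1:**
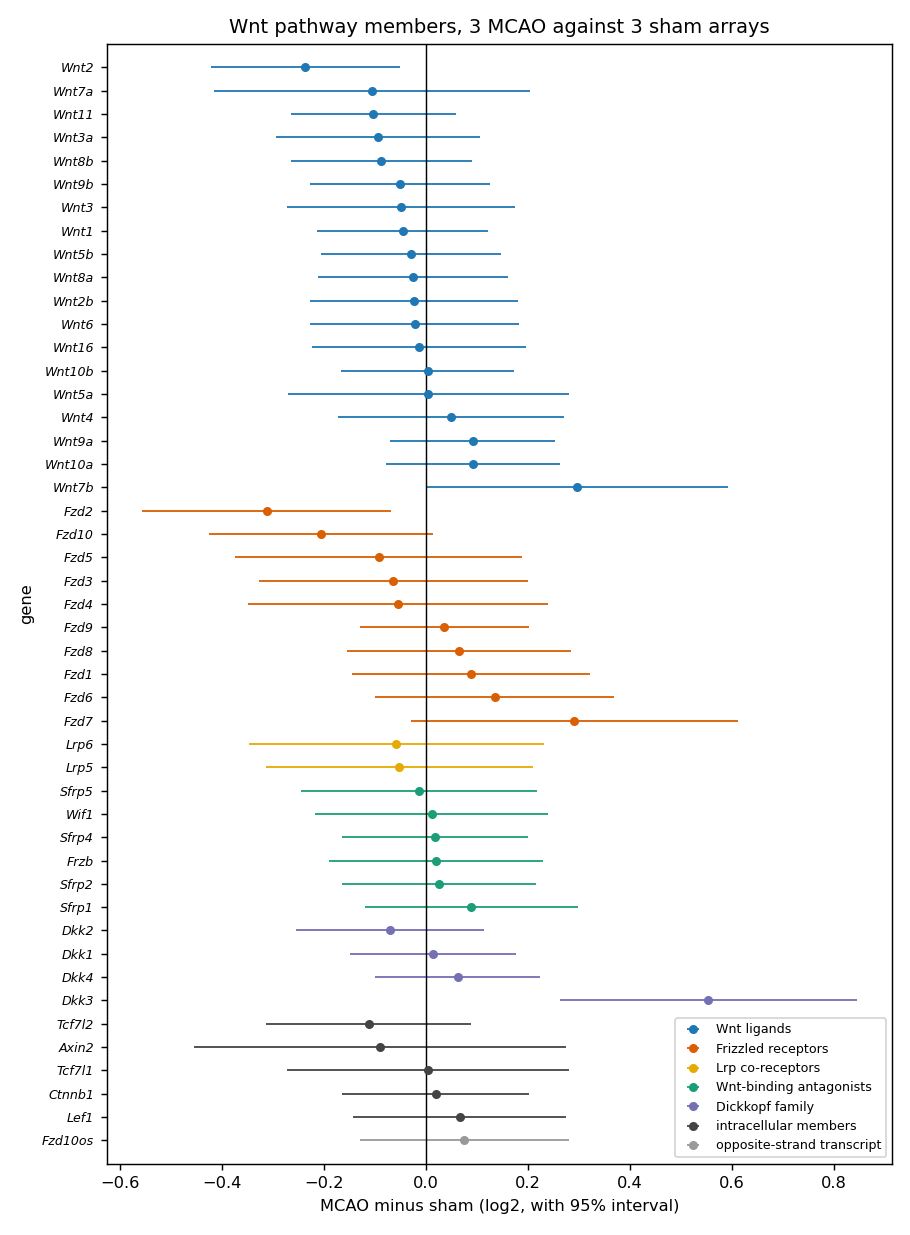
Difference between MCAO and sham for each of the 47 members (log2, points) with its 95% interval from limma without the block (lines), coloured by role. Dkk3 lies at 0.55 and Fzd2 at -0.31, and every other member lies between -0.24 and 0.30.

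Among the ligands, 6 of 19 were higher and 13 lower in MCAO, with a median of -0.03, and none passed in either fit. Over all genes 9523 of 18194 were lower. Only 3 of the 19 ligands, Wnt2, Wnt7a and Wnt7b, lay above the median gene in sham, so most ligand values below are dim. Wnt7b, a ligand of the beta-catenin branch known for its part in brain vessel formation, read 7.54, 7.72 and 7.93 on MCAO arrays 1 to 3 and 7.28, 7.62 and 7.40 on the sham arrays. The groups overlapped, through the second sham array. Within pairs MCAO was higher by 0.26, 0.09 and 0.54. The difference was 0.30 ± 0.13 (adjusted p = 0.560, and 0.0824 with the block), and the second Wnt7b probe set read 0.15.

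Wnt7a, its close relative with the same vascular role, read 7.55, 7.79 and 7.80 in MCAO and 7.54, 7.96 and 7.97 in sham. Both arrays numbered 1 were the lowest of their group, and the difference of -0.11 ± 0.13 was smaller than its SE. The 2 other Wnt7a probe sets read 0.07 and 0.00.

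Wnt2, a beta-catenin branch ligand, read 7.22, 7.31 and 7.11 in MCAO and 7.44, 7.41 and 7.51 in sham. All 3 MCAO arrays were below all 3 sham arrays, with differences within pairs of -0.21, -0.10 and -0.40. The difference of -0.24 ± 0.08 missed the threshold in both fits (adjusted p = 0.366, and 0.112 with the block). Wnt11, a ligand known mainly for branches that do not use beta-catenin, read 6.22, 6.23 and 6.18 in MCAO and 6.25, 6.35 and 6.34 in sham. The groups did not overlap, but the gap between them was small and the difference was -0.10 ± 0.07 (adjusted p = 0.842).

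Wnt9a read 6.32, 6.30 and 6.24 in MCAO and 6.15, 6.24 and 6.20 in sham, again without overlap (0.09 ± 0.07, adjusted p = 0.874). Its other probe set read -0.06, opposite in sign. Wnt3a, the ligand most used to switch on beta-catenin signalling in culture, read 6.22, 6.02 and 6.25 in MCAO and 6.27, 6.31 and 6.19 in sham (-0.09 ± 0.09). Wnt8b read 6.23, 6.12 and 6.31 in MCAO and 6.29, 6.32 and 6.31 in sham (-0.09 ± 0.08). Wnt10a read 6.44, 6.38 and 6.48 in MCAO and 6.29, 6.41 and 6.32 in sham (0.09 ± 0.07). In all 3 of these ligands the groups overlapped.

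The other 11 ligands were Wnt1, Wnt2b, Wnt3, Wnt4, Wnt5a, Wnt5b, Wnt6, Wnt8a, Wnt9b, Wnt10b and Wnt16, with Wnt5a known as the main ligand of the branches that act through planar polarity and calcium. They differed by between -0.05 for Wnt9b and 0.05 for Wnt4, and their groups overlapped. Wnt5a read 6.65, 6.42 and 6.31 in MCAO and 6.62, 6.29 and 6.47 in sham, a difference of 0.00 ± 0.12; its 3 other probe sets read between 0.10 and 0.23. The probe sets of Wnt3 and Wnt5b may bind related transcripts.

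Several of these ligand genes are neighbours on the chromosome. In the RefSeq gene order Wnt6 lies next to Wnt10a, Wnt3a next to Wnt9a, Wnt9b next to Wnt3 and Wnt10b next to Wnt1, with no protein-coding gene between them. The differences within these pairs were -0.02 and 0.09, -0.09 and 0.09, -0.05 and -0.05, and 0.00 and -0.05.

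Of the 10 Frizzled receptors, 5 were higher and 5 lower, with a median of -0.01. Fzd2, a receptor that takes part in both branches of the pathway, fell in the fit with the block. It read 7.61, 7.82 and 7.52 in MCAO and 7.83, 8.08 and 7.98 in sham. All 3 MCAO arrays were below all 3 sham arrays, and the differences within pairs were -0.22, -0.27 and -0.45. The difference was -0.31 ± 0.105, or 0.805 of the sham level (adjusted p = 0.0332 with the block, against 0.362 when the number was ignored). The 2 other Fzd2 probe sets read -0.04 and -0.10, both smaller than that of the brightest one. Averaging all 3 gave -0.15 (adjusted p = 0.723 without the block). On the values as deposited the difference was -0.27 (adjusted p = 0.185 with the block). In a fit of all probe sets with the block, all 3 Fzd2 probe sets missed the threshold by limma. The adjusted p was 0.0716 for the brightest and 0.884 and 0.673 for the others. With the block Fzd2 also did not pass without both arrays numbered 1 (0.0555) or 3 (0.198).

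Fzd7, a receptor of beta-catenin signalling in stem cells of several tissues, lay on the other side. It read 6.96, 6.71 and 6.74 in MCAO and 6.65, 6.21 and 6.67 in sham, with the second sham array well below the rest. The groups did not overlap and the difference was 0.29 ± 0.14 (adjusted p = 0.648, and 0.0828 with the block). Without the second sham array it was 0.14, and the other Fzd7 probe set read 0.04. Fzd10 read 6.67, 6.76 and 6.892 in MCAO and 6.895, 7.12 and 6.93 in sham. The highest MCAO array lay just below the lowest sham array (-0.21 ± 0.09, adjusted p = 0.628, and 0.180 with the block). Without the second sham array the difference was -0.13, and the other Fzd10 probe set read -0.02. The transcript Fzd10os, on the opposite strand by its name, differed by 0.08 ± 0.09, with overlapping groups.

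Fzd6, a receptor of the planar polarity branch, read 7.67, 7.39 and 7.38 in MCAO and 7.42, 7.26 and 7.36 in sham (0.13 ± 0.10). Fzd1 read 7.55, 7.49 and 7.45 in MCAO and 7.28, 7.61 and 7.34 in sham (0.09 ± 0.10). In both receptors the groups overlapped. The remaining receptors, Fzd3, Fzd4, Fzd5, Fzd8 and Fzd9, differed by between -0.09 and 0.06. Among them are Fzd3, known for guiding axons through the planar polarity branch, at -0.06 ± 0.11, and Fzd4, the vascular receptor for norrin, at -0.06 ± 0.13.

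The co-receptors Lrp5 and Lrp6, which relay the signal toward beta-catenin, differed by -0.05 ± 0.11 and -0.06 ± 0.12. Lrp6 read 8.02, 7.64 and 7.57 in MCAO and 7.90, 7.72 and 7.79 in sham. Both arrays numbered 1 were the highest of their group, and the differences within pairs changed sign, at 0.12, -0.08 and -0.22.

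The clearest single difference of the whole set was that of Dkk3. The Dickkopf family consists of secreted proteins of which Dkk1, Dkk2 and Dkk4 bind the Lrp co-receptors, while Dkk3 is the divergent member whose action on Wnt signalling is less settled. Dkk3 read 9.57, 9.89 and 9.56 in MCAO and 9.11, 9.30 and 8.95 in sham. All 3 MCAO arrays lay above all 3 sham arrays, and the differences within pairs were 0.46, 0.59 and 0.61. The group means of Dkk3 were 9.67 ± 0.19 for MCAO and 9.12 ± 0.18 for sham (SD, n = 3). The difference was 0.55 ± 0.13 (SE), or 1.47-fold. It passed with the block (adjusted p = 9.28e-04) and missed the threshold when the number was ignored (adjusted p = 0.124). Its second probe set read 8.91, 9.10 and 8.94 in MCAO and 8.51, 8.68 and 8.49 in sham, a difference of 0.43 ± 0.09 that likewise did not overlap. In a fit of all probe sets with the block both had an adjusted p below the threshold (0.00361 and 0.0110). With the block Dkk3 also passed on the values as deposited (0.00127) and without any 1 pair of same-numbered arrays (between 1.51e-04 and 0.00658).

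The other Dickkopf genes showed no such difference, but all were dim. Unlike Dkk3, they lay below the median gene in sham, with means of 5.92 (Dkk1), 5.77 (Dkk2) and 5.53 (Dkk4). Narrow intervals at such levels do not show that a change was absent. Dkk1 read 0.01 ± 0.07 and Dkk4 0.06 ± 0.07. Dkk2 read 5.70, 5.65 and 5.73 in MCAO and 5.85, 5.65 and 5.79 in sham (-0.07 ± 0.08), with overlapping groups. The 95% intervals reached from -0.15 to 0.18 for Dkk1, from -0.26 to 0.11 for Dkk2 and from -0.10 to 0.22 for Dkk4, against 0.26 to 0.85 for Dkk3.

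The antagonists that bind Wnt proteins directly stayed within 0.09 of sham. Sfrp1, a soluble relative of the Frizzled receptors, read 7.96, 7.86 and 7.78 in MCAO and 7.76, 7.90 and 7.67 in sham (0.09 ± 0.09), with overlapping groups. Its 4 other probe sets read between 0.00 and 0.07. Sfrp2, Sfrp4, Sfrp5, Frzb and Wif1 read 0.03, 0.02, -0.01, 0.02 and 0.01, each with an adjusted p of at least 0.988. Of these 5, all but Sfrp4 lay below the median gene in sham.

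**Figure D2:**
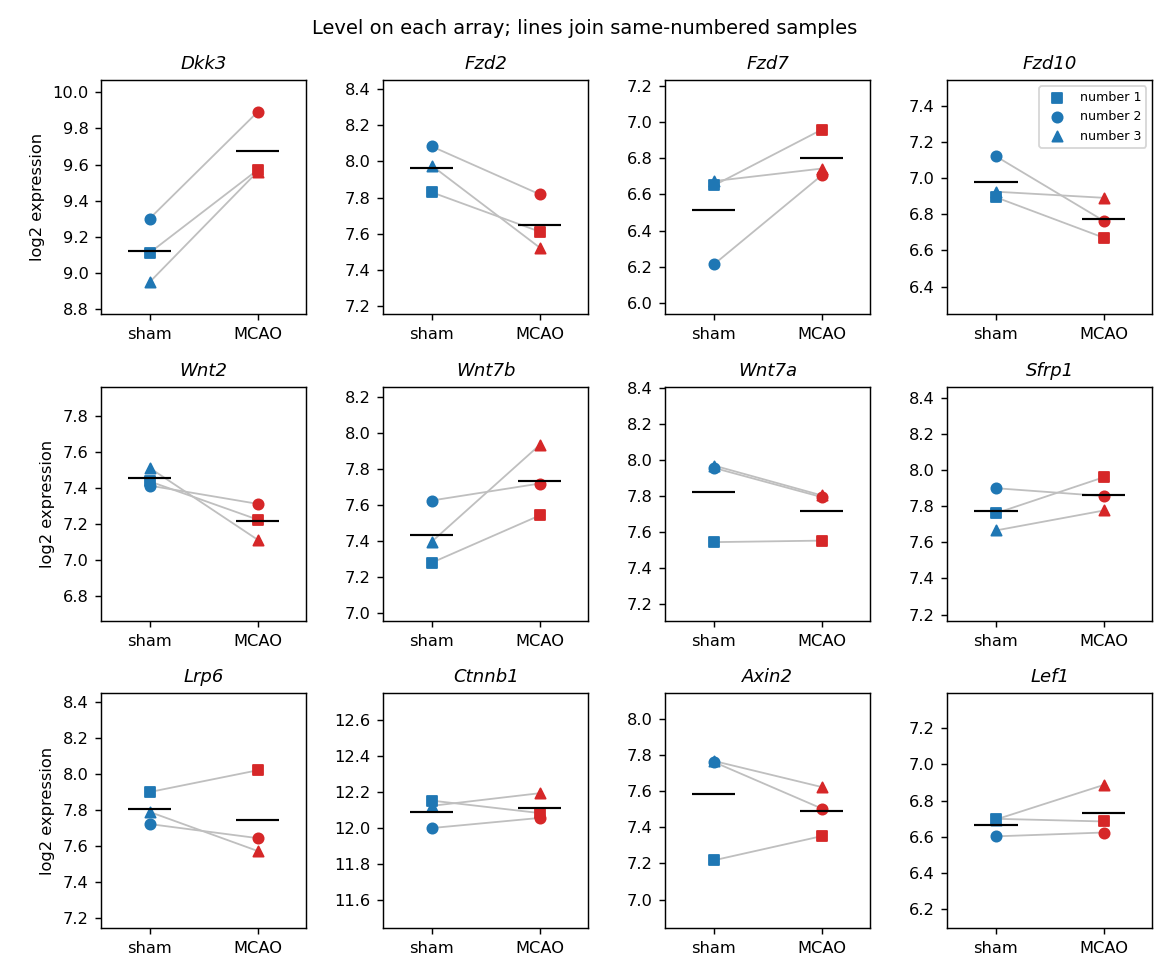
Level of 12 members on each array (log2 expression, y axis spanning the same range of 1.3 log2 in each panel) in sham (blue) and MCAO (red). Marker shapes give the sample number, grey lines join same-numbered samples and black bars are means; Dkk3 rises along all 3 lines and Fzd2 falls along all 3, while the lines of Lrp6, Axin2 and Ctnnb1 run both ways.

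The intracellular members did not separate the groups. Ctnnb1, which encodes beta-catenin, read 12.08, 12.06 and 12.19 in MCAO and 12.15, 11.999 and 12.12 in sham. The groups overlapped, and the difference of 0.02 ± 0.08 had a 95% interval from -0.16 to 0.20. Its 2 other probe sets read 0.04 and 0.11. Tcf7l2, a nuclear partner of beta-catenin, read 6.44, 6.45 and 6.67 in MCAO and 6.59, 6.67 and 6.63 in sham (-0.11 ± 0.09), and all 3 of its other probe sets were also lower, between -0.17 and -0.03. Tcf7l1, which mostly represses targets, read 0.00 ± 0.12.

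Axin2 and Lef1 are both parts of the pathway and targets of it, and Axin2 is the feedback inhibitor most used as a readout of beta-catenin signalling. Axin2 read 7.35, 7.504 and 7.62 in MCAO and 7.22, 7.76 and 7.77 in sham. Both arrays numbered 1 were the lowest, and the differences within pairs were 0.13, -0.26 and -0.14. Its second probe set read 0.03, opposite in sign. The difference was -0.09 ± 0.16 (adjusted p = 0.966), with a 95% interval from -0.45 to 0.28, or from -0.28 to 0.10 with the block. Lef1 read 6.68, 6.62 and 6.89 in MCAO and 6.70, 6.60 and 6.70 in sham (0.07 ± 0.09, adjusted p = 0.955).

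Axin2 and Wnt7a were 2 of 13 members (27.7%) for which both arrays numbered 1 lay on one side of the other 4 arrays; the share over all genes was 31.0%. The others were Fzd3, Fzd4, Fzd6, Fzd10os, Lrp6, Tcf7l1, Wif1, Wnt4, Wnt5a, Wnt6 and Wnt10b. The labels do not say what the number stands for.

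Promoter sequences were read from RefSeq (GRCm38.p6) as windows of 300 bases, 250 before to 50 after each annotated start, and were matched for 32 of the 47 members. The windows were searched on both strands for CTTTGAT, the consensus core bound by Tcf and Lef factors. It was found in 2 members (6.25%), Wnt11 and Wnt5b, against 3.46% of the 14453 measured genes with a window, and in 3.73% of all 32851 windows. With the windows of each gene averaged, the median GC content over the 32 members was 66.5%, against 58.7% over the measured genes. The median number of CG dinucleotides was 26.5 against 17.0. A pair of windows is shown. That of Axin2 was chosen because its level is the usual readout of the pathway. The first window of Wnt11 was chosen because it holds the motif (capitals, read on the opposite strand) before a ligand whose groups did not overlap. The Wnt11 difference was small (-0.10 ± 0.07), and Wnt5b, which also has the motif, had overlapping groups (-0.03 ± 0.08). Any link between motif and level was not tested. The Axin2 window, at chr11:108920099-108920398 on the + strand, holds no match; the Wnt11 window, at chr7:98834862-98835161 on the + strand, holds 1 match starting at base 200.
Axin2: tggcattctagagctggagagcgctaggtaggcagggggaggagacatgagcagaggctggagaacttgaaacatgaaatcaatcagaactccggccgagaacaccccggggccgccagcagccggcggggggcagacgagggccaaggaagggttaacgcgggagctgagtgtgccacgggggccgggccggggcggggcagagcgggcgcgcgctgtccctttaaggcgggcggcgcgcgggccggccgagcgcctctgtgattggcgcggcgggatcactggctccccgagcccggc
Wnt11: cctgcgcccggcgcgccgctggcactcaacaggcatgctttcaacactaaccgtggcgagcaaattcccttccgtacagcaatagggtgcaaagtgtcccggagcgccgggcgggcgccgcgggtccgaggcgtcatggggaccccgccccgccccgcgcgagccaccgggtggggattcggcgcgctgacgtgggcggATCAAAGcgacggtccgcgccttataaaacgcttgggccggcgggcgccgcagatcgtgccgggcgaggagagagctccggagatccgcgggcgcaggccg

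**Figure D3:**
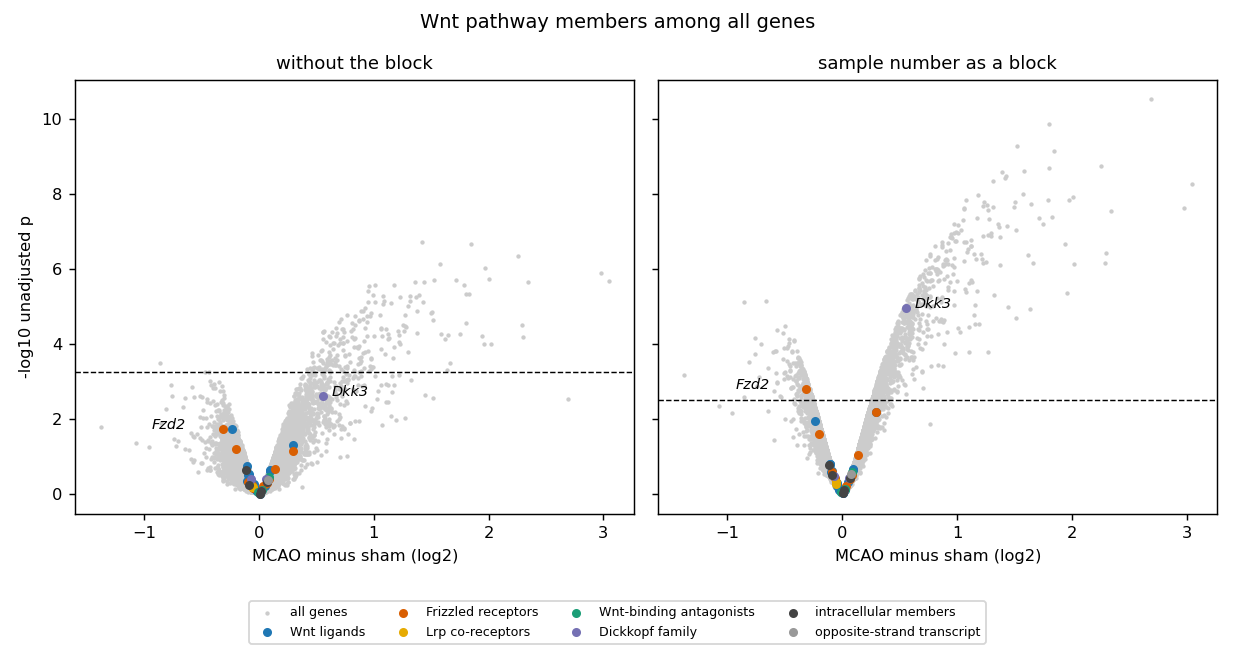
Difference between MCAO and sham (log2, x axis) against −log10 of the unadjusted p for all 18194 genes (grey) and the 47 members (coloured by role), without the block (left) and with it (right). The dashed line is the highest p that passes after adjustment; no member lies above it on the left, and Dkk3 and Fzd2 do on the right.

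The other genes of the pathway were read from 6 lists with 111 entries, of which 110 were measured. Over the 110, 3 genes (2.73%) passed without the block and 12 (10.9%) with it, 8 higher and 4 lower, with a median difference of -0.02. Over all genes the shares were 1.13% and 6.12%, and with the block 4.82% were higher and 1.30% lower. Of the 110, 66 lay above the median gene in sham, and 8.88% of all genes above the median passed with the block. These lists were written with earlier results of these data known, so the shares are descriptions.

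Among further receptors and modulators at the membrane, 0 of 13 passed without the block, 1 passed with it, and the median was -0.01. Apcdd1, a membrane inhibitor of Wnt signalling, read 9.26, 8.78 and 8.68 in MCAO and 8.51, 8.13 and 8.30 in sham. All 3 MCAO arrays were above all 3 sham arrays, and Apcdd1 was higher by 0.59 ± 0.17 without the block (adjusted p = 0.229). With the block it rose, with an SE of 0.082 (adjusted p = 0.00168). Its probe set may bind related transcripts. Among 15 genes of ligand secretion, agonists and further antagonists, 0 passed in either fit (median -0.01). The smallest p-values there belonged to Cthrc1, a secreted glycoprotein, at 0.21, and Ndp, which encodes the Fzd4 ligand norrin, at 0.23.

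In the destruction complex and its cytoplasmic relay 0 of 21 genes passed without the block and 1 with it, with a median of -0.06 and 15 lower. Gsk3b, the kinase that marks beta-catenin for degradation, read 10.22, 9.79 and 10.27 in MCAO and 10.61, 10.24 and 10.37 in sham. The groups overlapped, MCAO was lower in each pair, and the Gsk3b difference was -0.32 ± 0.15 without the block (adjusted p = 0.641). With the block it fell, with an SE of 0.081 (adjusted p = 0.0489). Of 20 nuclear cofactors and repressors 0 passed without the block and 2 with it (median -0.03): the corepressor Ctbp2 at 0.38 (adjusted p = 0.0101 with the block) and the histone deacetylase Hdac1 at 0.31 (0.0414).

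In the planar polarity and calcium branch, 0 of 21 passed without the block and 5 (23.8%) with it, against 6.12% of all genes, 2 higher and 3 lower, with a median of -0.09. Camk2a, a calcium-activated kinase of neurons, read 10.78, 9.45 and 10.08 in MCAO and 10.85, 10.70 and 10.98 in sham, a difference of -0.74 that was spread unevenly over the pairs (-0.07, -1.25 and -0.90; adjusted p = 0.0291 with the block). Also lower with the block were the Dishevelled-binding gene Dact2 (-0.32, 0.0414) and the planar polarity gene Prickle1 (-0.27, 0.0468). Higher with the block were the small GTPase Rhoa (0.34, 0.0223), whose probe set may bind related transcripts, and the calcineurin-regulated factor Nfatc1 (0.30, 0.0310).

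Of 20 genes known as transcriptional targets, 3 rose in both fits, where 1.13% and 6.12% of all genes passed, and 16 were higher, against 47.7% of all genes, with a median of 0.09. Cd44, a hyaluronan receptor, rose by 1.97 ± 0.14 (adjusted p = 0.00304), the G1 cyclin Ccnd1 by 1.21 ± 0.15 (0.0116) and the mitotic and survival gene Birc5 by 0.97 ± 0.15 (0.0303). Averaging all probe sets of a gene gave 1.15 for Cd44 (adjusted p = 0.00357). Ccnd1 read 8.85, 8.53 and 9.13 in MCAO and 7.503, 7.68 and 7.69 in sham. Without the third sham array Ccnd1 had an adjusted p of 0.0743 and Birc5 one of 0.164. Birc5 also missed the threshold without MCAO 1 (0.0521), MCAO 2 (0.102), sham 1 (0.0654) or sham 2 (0.0805), and on the values as deposited (0.0532). The targets Axin2 and Lef1, members of the set above, were not among those that passed.

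**Figure D4:**
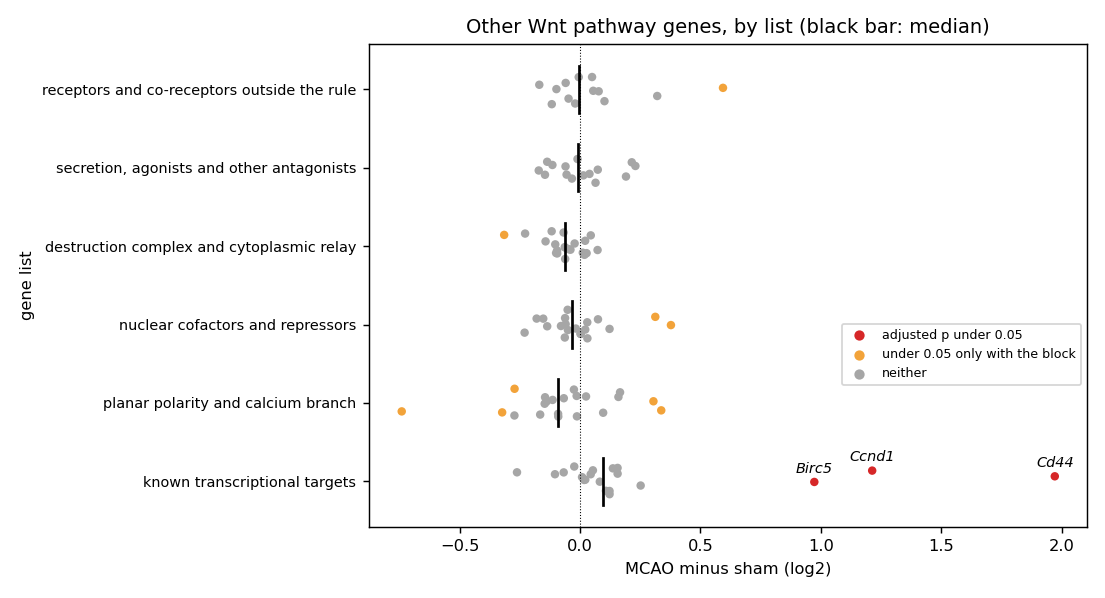
Differences of the 110 other pathway genes (log2, x axis) by list, with the median of each list as a black bar. Red points passed without the block, orange points with the block only; the red points are Cd44 at 1.97, Ccnd1 at 1.21 and Birc5 at 0.97.

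Cell type markers moved in the same samples, and in bulk tissue fewer cells of a type and less RNA per cell cannot be told apart. Over all genes 1.13% passed without the block and 6.12% with it, 47.7% were higher, and 9523 of 18194 were lower. Of 10 markers of microglia and macrophages, 5 rose without the block (Mrc1, C1qa, Tyrobp, Cd68 and Aif1) and 9 with it, and their mean level was 8.69 to 9.11 on the MCAO arrays and 8.05 to 8.11 on the sham arrays. Of 10 astrocyte markers, 2 rose without the block (Aldh1l1 and Aqp4), and with it Gfap did too. The mean level of the 10 was 10.32 to 10.38 against 9.74 to 9.97, while their median difference was 0.14 and 2 of them were lower, Slc1a2 (-0.28) and Aldoc (-0.04). Of 10 neural stem cell markers, Fabp7 and Vcam1 rose, and with the block Slc1a3 rose and Hes5 fell. Of the 9 markers that rose without the block, 7 missed the threshold without the third sham array: Fabp7 (0.158), Vcam1 (0.240), Aqp4 (0.200), Aldh1l1 (0.0543), Aif1 (0.151), Cd68 (0.101) and Tyrobp (0.0841). Leaving out MCAO 2, MCAO 3, sham 1 or sham 2 also ended some of these calls, and on the values as deposited Vcam1 (0.0803), Aqp4 (0.0866) and Aif1 (0.0558) missed it. With the block alone Cd24a among 10 neuroblast markers and Rarres2 among 10 ependymal markers rose, while Drd1 among 8 markers of striatal neurons and Camk4 among 9 markers of cortical, hippocampal or septal neurons fell. All 8 striatal markers were lower, with a mean level of 11.12 to 11.29 in MCAO and 11.35 to 11.55 in sham. All 9 cortical, hippocampal or septal markers were lower too (median -0.13), with mean levels of 6.92 to 7.02 and 6.96 to 7.21. In turn, all 10 ependymal markers were higher (median 0.24), and 8 of them were higher in all 3 pairs, as were 3634 of all 18194 genes. All 10 markers had overlapping groups, and 0 had an unadjusted p under 0.05 without the block by limma. Their mean level was 8.14 to 8.71 in MCAO and 7.86 to 8.59 in sham.

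In both fits 0 of 9 choroid plexus markers, 0 of 9 endothelial markers, 0 of 10 markers of mural cells and fibroblasts and 0 of 9 markers of the oligodendrocyte lineage passed by limma. The smallest p-values in these lists belonged to Ttr (-0.28) and Slc4a5 (0.13), Cldn5 (0.28) and Slco1c1 (0.37), Col1a2 (0.32) and Col3a1 (0.23), and Mbp (-0.11) and Opalin (-0.17). The part of any of these cell types in the differences of Dkk3, Fzd2 and Apcdd1 was not tested.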

How the data were processed

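The values used were deposited by the authors as log2 expression values, 1 per probe set, for 45101 probe sets on each of 6 arrays; the sources used here name no method of background correction or normalization. Medians of the deposited log2 values spanned 6.57 to 6.59 and the 90th percentiles 8.85 to 9.06, and the arrays were then quantile-normalised. The number of arrays limits the precision. Probe sets with exactly 1 symbol in the array annotation (34958) were used, and for each gene the one with the highest mean over 6 arrays. The groups were set against each other with lmFit and eBayes of limma 3.58.1 (R 4.3.3). The fit without the block was checked on simulated data with independent noise on each array. The fit with the block was not checked in this way. Of the members, 30 had several probe sets.

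Deviations from the group means correlated over genes at 0.77, 0.44 and 0.48 between arrays numbered 1, 2 and 3. Of the 6 pairs with different numbers, MCAO 3 with sham 2 also correlated above 0.1, at 0.29, and the others lay between -0.59 and 0.03. Since all 3 same-numbered pairs exceeded 0.1, the numbers were taken to pair the samples. The labels do not state this. Within a group the deviations cancel out, so these correlations are not independent of each other. The pairing was read from the same values as the calls with the block, and those calls rest on it.

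Members and gene lists were chosen with earlier results of these data known. Every member is named. Values on every array are given for members past the threshold in either fit, then by smallest p until 15, and for Ctnnb1, Axin2, Lef1, Tcf7l2, Lrp6, Sfrp1, Dkk3, Wnt7a, Wnt7b and Fzd1, which made 21; Wnt5a was added. Of each other list up to 5 genes past the threshold, or else the 2 smallest p, are named. Alternatives were the block, deposited values, other probe set rules, filters, variance models and left-out arrays.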

Additional observations from a re-analysis of the deposited data

How the results depend on the processing

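Of the 47 members 0 passed in every fit without the block that was run, whichever of the 6 arrays was left out (0 to 0). With the replicate block 2 passed, with that block fitted to the deposited values 1 (Dkk3), and with the block but without both arrays numbered 1, 2 or 3, alternatives chosen after seeing the data, 1, 4 and 2. Without both arrays numbered 2 the 4 were Dkk3, Fzd2, Wnt2 (-0.30) and Wnt7b (0.40), and without those numbered 3 Dkk3 and Fzd7 (0.40). The members' median difference stayed between -0.06, with genes below the median left out, and 0.02. Over all genes 206 passed, with 1113 under the block, 816 under the block on deposited values, 688, 1712 and 648 under the block without arrays numbered 1, 2 or 3, and 44 to 209 with 1 array left out (98 without MCAO 3, 125 without sham 1, 132 without sham 2, 44 without sham 3). Of the other pathway genes 3 passed, 12 with the block and 1 to 3 with 1 array left out. For single members, 851 of 861 alternatives kept the side of the threshold and 10 gained a call, all with the block; 89 changed sign where a difference was below its SE, which was read as no direction.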
